A study of Mus musculus with 10 samples.

Results

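Genes of Notch signalling, retinal progenitors and Müller glia reprogramming were followed through light damage of the mouse retina. They are the receptor *Notch1*, its ligand *Dll1*, the transcriptional repressors *Hes1*, *Hes5* and *Hey1*, the progenitor transcription factors *Sox2*, *Sox9* and *Lhx2*, and the RNA-binding protein *Lin28a*. They were taken by gene symbol, 9 of the 54532 genes in the deposited expression table, and all 9 were among the 24508 genes tested. RNA was sequenced from 10 neural retinas of 2-month-old mice of the albino BALB/c strain, whose eyes lack light-absorbing pigment. Per the labels, all mice spent 12 h in the dark, after which 5 received normal light of 200 lux (NL) and 5 received light of 15000 lux (LD), each for 1 day. The design asks which transcripts of the retina differ after a day of damaging light. By label number, NL comprised retinas 1, 4, 5, 7 and 8, while LD comprised 1, 4, 6, 7 and 8. The labels tie no retina to an animal, so the p-values measure the spread between these samples.

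Notch receptors sit on the cell surface and are activated by Delta and Jagged ligands on neighbouring cells. The receptor is then cut, its intracellular part enters the nucleus and joins the DNA-binding protein RBPJ, and genes of the Hes and Hey families, which repress neurogenic transcription factors, are switched on. In the developing retina this keeps progenitors undifferentiated and favours the glial fate. Müller glia, the main glia of the adult retina, keep several progenitor factors, among them SOX2, SOX9 and LHX2. In fish, which regenerate the retina from Müller glia, LIN28A, an inhibitor of let-7 microRNA maturation, belongs to the factors that drive their return to a progenitor state.

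Levels are given as FPKM (fragments mapped to a gene per kilobase of its length, relative to the size of the library), which the authors computed and which correct for gene length. Library depth ran from 21343389 to 26832535 reads in NL and from 18965090 to 23378090 in LD. Differences are log2 fold changes of FPKM + 0.1, a scale that understates the change of low genes, with their standard error (SE) and a p-value from limma adjusted over the 24508 genes by the Benjamini-Hochberg method. Called genes are those that changed more than 2-fold at an adjusted p under 0.01. Some libraries of a group were closer to each other than to the rest, namely NL-5 and NL-7, LD-1 and LD-7, and LD-4 and LD-6. Their chi-square statistic per gene was 2.52 to 3.41, against 10.9 to 38.5 for all other pairs of a group. *Xist*, the RNA of the inactive X chromosome, was detected in NL-4, NL-8, LD-4 and LD-6, and the labels give no sex. Rod transcripts fell, with 10 of 10 rod markers called lower and a summed rod marker level of 8988 to 10910 FPKM in NL and 1409 to 2715 FPKM in LD. In tissue of mixed cells, fewer cells of a type and less RNA per cell cannot be told apart.

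*Sox2* rose and *Hes5* fell past the threshold, so 2 of the 9 genes were called, against 6.51% of all genes tested. Higher calls made up 4.13% and lower calls 2.37% of all genes tested. At an adjusted p under 0.05 with no minimum fold, *Notch1*, *Dll1*, *Sox2* and *Sox9* were higher and *Hes5* lower in LD, 5 of 9 against 27.8% of all genes (14.5% higher and 13.4% lower). In these 5 genes no LD retina overlapped with an NL retina, which held for 22.4% of all genes tested. *Hes1*, *Hey1*, *Lhx2* and *Lin28a* did not pass either rule. The median log2 fold change of the 9 genes was 0.37, beside −0.01 for all genes tested.

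**Figure D1:**
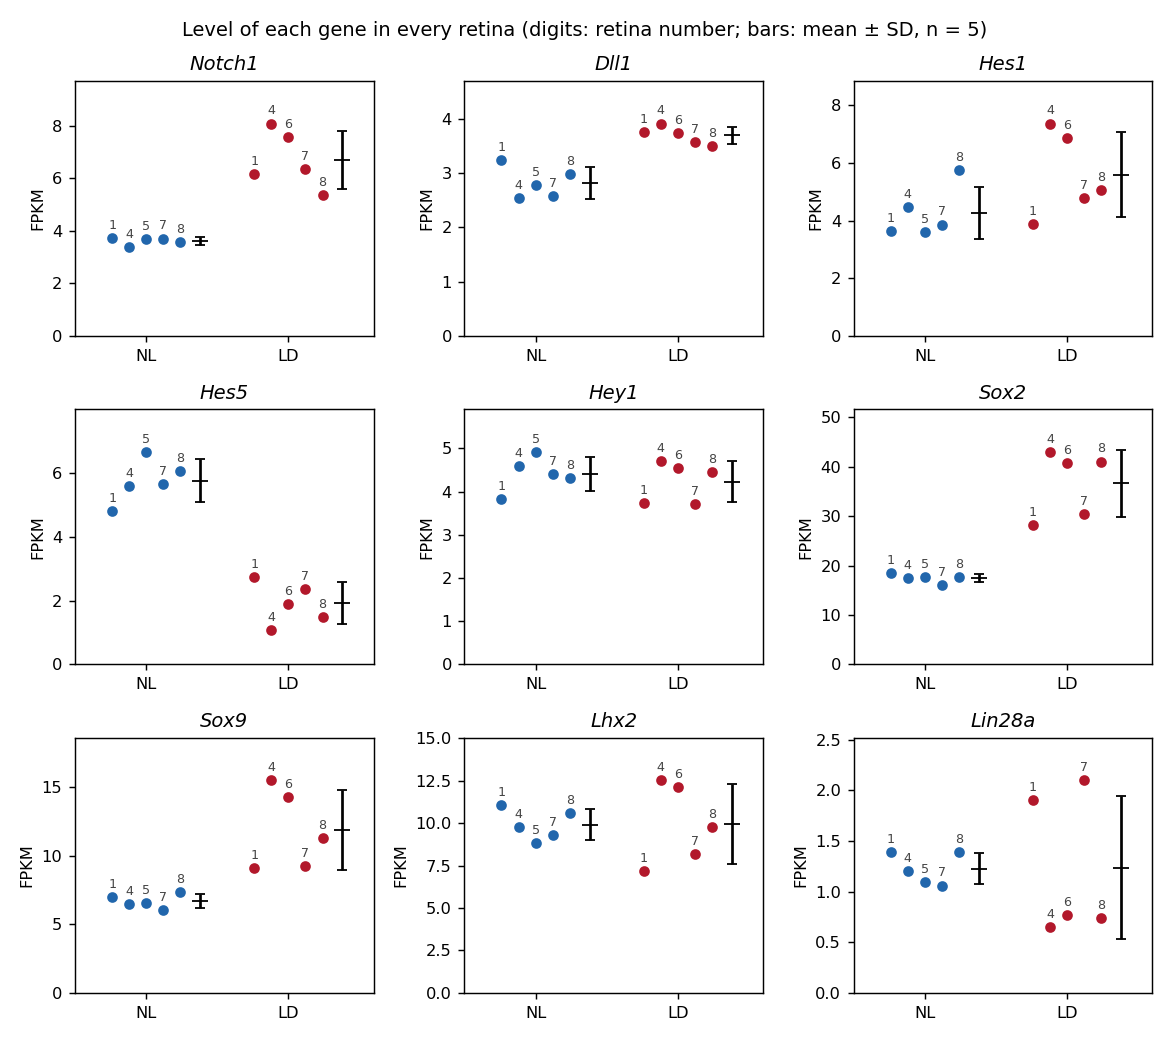
FPKM of the 9 genes in each of the 10 retinas, with NL in blue, LD in red, the retina number above each point and bars for mean ± SD (n = 5). All LD points of *Notch1*, *Dll1*, *Sox2* and *Sox9* lie above and all LD points of *Hes5* lie below the NL points, whereas the groups overlap in *Hes1*, *Hey1*, *Lhx2* and *Lin28a*.

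*Notch1*, the receptor (chromosome 2, 26457903 to 26516663, minus strand, GRCm38), was higher in every LD retina. Its level was 3.74, 3.37, 3.67, 3.71 and 3.56 FPKM in NL-1, NL-4, NL-5, NL-7 and NL-8, and 6.17, 8.08, 7.55, 6.36 and 5.36 FPKM in LD-1, LD-4, LD-6, LD-7 and LD-8. The NL values stayed within a narrow band, and the lowest LD retina exceeded all of them. Mean levels were 3.61 ± 0.15 FPKM in NL and 6.71 ± 1.10 FPKM in LD (SD, n = 5), from 1018 to 1308 and 1699 to 2405 reads. This was a 1.82-fold increase (log2 fold change 0.86, SE 0.10, limma adjusted p = 1.44e-04, 95% confidence interval 0.63 to 1.09), short of the minimum fold. The two-sided exact permutation test gave p = 0.00794, the smallest that 5 against 5 retinas allow. *Notch1* shares 1068 of its 14232 exonic bases with *0610009E02Rik* on the opposite strand, which had 1.03 FPKM in NL and 0.967 FPKM in LD.

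*Dll1*, the Delta ligand (chromosome 17, 15367354 to 15376872, minus strand), rose less. Values were 3.25, 2.54, 2.78, 2.58 and 2.99 FPKM in the NL retinas, in the order above, and 3.75, 3.92, 3.74, 3.57 and 3.50 FPKM in the LD retinas. The LD values lay close together and just above the highest NL retina. The increase was 1.30-fold (2.83 ± 0.294 to 3.70 ± 0.163 FPKM, log2 fold change 0.38, SE 0.08, limma adjusted p = 0.00512, exact permutation p = 0.00794). With the close pairs of libraries averaged it was 0.35 on the log2 scale with an adjusted p of 0.0629. Of the 4219 exonic bases of *Dll1*, 867 are shared with the long noncoding gene *A930024N18Rik* on the opposite strand (0.553 FPKM in NL and 0.860 FPKM in LD). Whether counting used the strand is not given in the sources used here, so reads of such overlapping pairs cannot be told apart.

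The Jagged ligands moved in opposite directions. *Jag1*, a Jagged ligand, was the only receptor or ligand called, and it fell 2.82-fold, from 24.7 ± 1.92 to 8.80 ± 1.62 FPKM (log2 fold change −1.50, SE 0.12, limma adjusted p = 8.95e-06). Its NL retinas spanned 21.9 to 26.9 FPKM and its LD retinas 6.88 to 10.2 FPKM. *Jag2* rose 1.43-fold, from 10.3 ± 1.20 to 14.8 ± 0.897 FPKM (log2 fold change 0.51, limma adjusted p = 8.32e-04), below the minimum fold. In NL *Jag1* was thus the most abundant of the 5 Delta and Jagged ligands, and in LD *Jag2* was, with no overlap between the 2 genes in either group.

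Among the receptors, *Notch3* had 1.15 ± 0.149 FPKM in NL and 1.71 ± 0.275 FPKM in LD (log2 fold change 0.53, limma adjusted p = 0.0155). With the close pairs averaged its adjusted p was 0.0799. *Notch3* is also a pericyte marker. Of 8 pericyte markers tested, *Notch3* included, 6 had a log2 fold change above 0, 2 were higher and 1 lower at an adjusted p under 0.05, and the median was 0.38. Their summed level, 265 to 300.2 FPKM in NL and 95.3 to 146 FPKM in LD, was mostly that of *Vtn*, the 1 called gene of this list, which fell from 268 to 107 FPKM. The sum was lowest in LD-4 and LD-6 (95.3 and 97.8 FPKM), as was that of the rod markers (1409 and 1493 FPKM). Which cells carried *Vtn* was not tested, so its fall cannot be read as one of pericyte transcripts. The part of pericytes in the result was not tested. *Notch2* (−0.08, 95% confidence interval −0.42 to 0.26) and *Notch4* (−0.06, −0.40 to 0.28) did not pass the test, nor did the low ligands *Dll3* (0.14, −0.35 to 0.63) and *Dll4* (−0.08, −0.54 to 0.38). Of 11 receptors and ligands tested, 1 was called, and at an adjusted p under 0.05 4 were higher and 1 was lower, with a median log2 fold change of −0.06.

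Of 28 genes for processing and trafficking of the receptor, which include its proteases and glycosyltransferases, 1 was called, and 7 were higher and 4 lower at an adjusted p under 0.05. The called gene, *Dtx3l*, a Deltex-family ubiquitin ligase that works with PARP9 in DNA damage and interferon responses, rose 11.5-fold from 0.643 ± 0.0559 to 8.66 ± 2.22 FPKM (log2 fold change 3.52, limma adjusted p = 2.41e-07). Of 17 genes of the nuclear complex, none was called by limma or by limma-voom on the recovered reads, while 3 were higher and 4 lower at an adjusted p under 0.05 and 9 had an unadjusted p under 0.05. *Rbpj* itself was at 1.72 ± 0.0875 FPKM in NL and 1.97 ± 0.481 FPKM in LD (log2 fold change 0.16, 95% confidence interval −0.17 to 0.49).

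**Figure D2:**
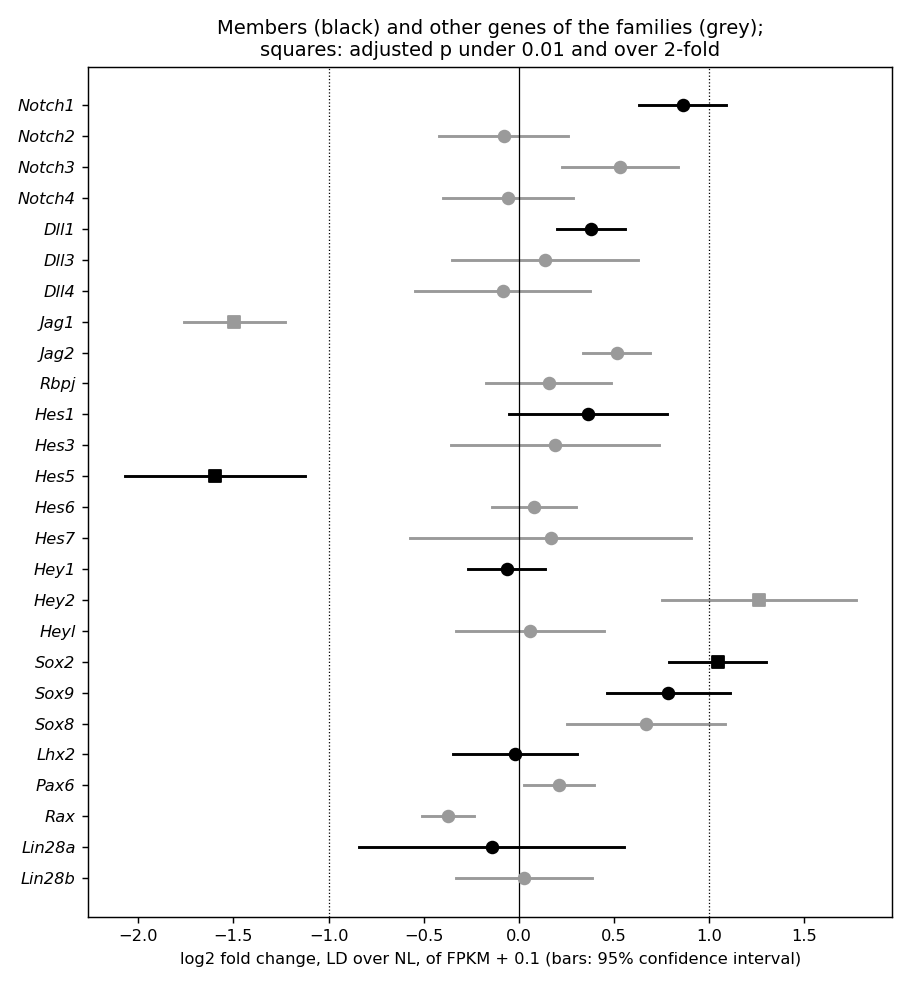
Log2 fold change, LD over NL, of FPKM + 0.1 with its 95% confidence interval (bars) for the 9 genes (black) and related genes (grey), where squares mark called genes and dotted lines a 2-fold change. *Hes5* and *Jag1* lie left of −1, *Sox2* and *Hey2* right of 1, and *Hes1*, *Hey1*, *Lhx2* and *Lin28a* have intervals that include 0.

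The Notch targets split. *Hes5*, a basic helix-loop-helix repressor that blocks neuronal differentiation (chromosome 4, 154960923 to 154962371, plus strand), fell. It was at 4.80, 5.60, 6.65, 5.63 and 6.06 FPKM in NL-1, NL-4, NL-5, NL-7 and NL-8 and at 2.74, 1.09, 1.90, 2.35 and 1.48 FPKM in LD-1, LD-4, LD-6, LD-7 and LD-8. Even the highest LD retina, LD-1, stood clearly under the lowest NL retina. The mean went from 5.75 ± 0.678 to 1.91 ± 0.66 FPKM, a 3.03-fold decrease (log2 fold change −1.60, SE 0.21, limma adjusted p = 3.04e-04, 95% confidence interval −2.07 to −1.13, exact permutation p = 0.00794). Its reads numbered 140 to 213 in the NL libraries and 30 to 91 in the LD libraries.

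*Hes5* shares 433 of its 1363 exonic bases with *Gm20421* on the opposite strand, whose level was 3.72 FPKM in NL and 2.23 FPKM in LD. As a direct Notch target, *Hes5* is shown here with the 250 bases before its start site, and *Sox2*, the other called gene, beside it. The sequences are from RefSeq (GRCm38.p6, plus strand, chr4:154960673-154960922 and chr3:34649745-34649994), with matches to the RBPJ motif TGGGAA on either strand in capitals.
*Hes5*: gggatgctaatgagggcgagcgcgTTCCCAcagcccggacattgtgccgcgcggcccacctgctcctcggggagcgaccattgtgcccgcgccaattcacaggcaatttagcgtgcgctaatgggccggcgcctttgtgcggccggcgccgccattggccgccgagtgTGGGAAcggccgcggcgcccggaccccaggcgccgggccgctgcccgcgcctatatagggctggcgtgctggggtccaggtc
*Sox2*: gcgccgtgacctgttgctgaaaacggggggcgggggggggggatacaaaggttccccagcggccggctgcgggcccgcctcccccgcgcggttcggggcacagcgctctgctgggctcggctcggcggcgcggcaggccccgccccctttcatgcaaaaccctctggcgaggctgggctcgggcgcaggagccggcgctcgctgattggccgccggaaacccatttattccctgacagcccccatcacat
The *Hes5* sequence holds the motif 2 times, at −226 on the reverse and −82 on the forward strand, counted from the start site, which is also the gene start in the deposited table. The *Sox2* sequence holds none, and its RefSeq start site (34649995) lies upstream of the gene start in the deposited table (34650405). Of 32851 mouse promoters of this length, 21.6% held the motif at least once and 2.77% at least 2 times. RefSeq promoters were matched for 6 of the 9 genes (*Notch1*, *Dll1*, *Hes5*, *Sox2*, *Lhx2* and *Lin28a*). Apart from *Hes5*, *Lhx2* held 1 match before each of its 2 start sites and *Lin28a* held 1.

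*Hes1*, a repressor widely used as a readout of Notch activity (chromosome 16, 30064384 to 30067796, plus strand), did not pass the test. Its values were 3.63, 4.48, 3.60, 3.86 and 5.75 FPKM in the NL retinas and 3.89, 7.36, 6.87, 4.76 and 5.07 FPKM in the LD retinas. The groups overlapped, and the high values of both came from particular libraries. In NL the 2 retinas with *Xist* (4.48 and 5.75 FPKM) lay above the 3 without it, and in LD the 2 retinas with *Xist* (6.87 and 7.36 FPKM) did so too. The mean was 4.26 ± 0.902 FPKM in NL and 5.59 ± 1.47 FPKM in LD (log2 fold change 0.37, SE 0.19, limma adjusted p = 0.181, 95% confidence interval −0.05 to 0.78, exact permutation p = 0.119). With detection of *Xist* as a covariate the log2 fold change was again 0.37, with an adjusted p of 0.0160. Over all other alternatives the adjusted p of *Hes1* ran from 0.0666 to 0.505.

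*Hey1*, a related repressor of the vasculature and nervous system (chromosome 3, 8663359 to 8667256, minus strand), had 3.84, 4.59, 4.92, 4.41 and 4.32 FPKM in the NL retinas and 3.73, 4.71, 4.55, 3.71 and 4.44 FPKM in the LD retinas. No group stood above the other. The log2 fold change was −0.06 (SE 0.09, limma adjusted p = 0.661, exact permutation p = 0.5), and its 95% confidence interval of −0.27 to 0.14 bounds any change. Without the authors' scaling factor per retina, the median of all genes was 0.11 instead of −0.01, and the log2 fold change of *Hey1* was 0.07.

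Ratios within a retina compare the genes independently of the scaling of the library apart from the small pseudocount. The 8 pairs were chosen after the values were seen. Their p-values were adjusted over the 8, which does not correct for that choice, so they describe the separation of the groups only. The log2 ratio of *Hes5* to *Hes1* was 0.40, 0.31, 0.87, 0.53 and 0.07 in the NL retinas and −0.49, −2.65, −1.80, −0.99 and −1.71 in the LD retinas. *Hes5* thus exceeded *Hes1* in all 5 NL retinas and was below it in all 5 LD retinas (difference −1.96, exact permutation p = 0.00794, adjusted 0.00907). *Hes5* to *Hey1* changed likewise by −1.53 (same p). *Hes1* to *Hey1* differed by 0.43, with groups that overlapped (exact permutation p = 0.0476, adjusted 0.0476), and its adjusted p was 0.0181 to 0.171 under 13 alternatives. The receptor rose relative to both its ligand and its target, by 0.48 for *Notch1* to *Dll1* and by 2.46 for *Notch1* to *Hes5* (exact permutation p = 0.00794, adjusted 0.00907 for both).

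**Figure D3:**
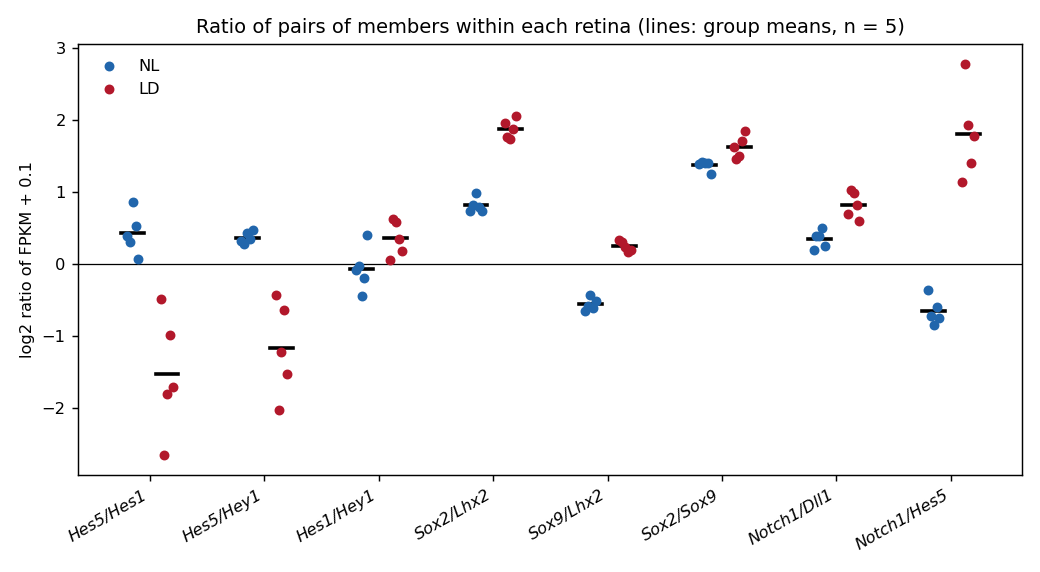
Log2 ratio of FPKM + 0.1 between pairs of the 9 genes within each retina (NL in blue, LD in red, lines for group means, n = 5). NL and LD points are separate in 7 of the 8 pairs and overlap for *Hes1*/*Hey1*, and the sign of the ratio is opposite in the groups for *Hes5*/*Hes1*, *Hes5*/*Hey1*, *Sox9*/*Lhx2* and *Notch1*/*Hes5*.

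Of the other genes in these families, *Hey2*, a repressor known from artery and heart development, rose 2.40-fold from 4.29 ± 0.741 to 10.9 ± 3.86 FPKM (log2 fold change 1.26, SE 0.23, limma adjusted p = 0.00212). Its LD values spanned 6.69 (LD-4) to 15.3 FPKM (LD-1), all above the highest NL retina (5.17 FPKM). With the close pairs averaged its adjusted p was 0.0129. *Hey2* is known from endothelial cells, and of 10 endothelial markers none was called by limma or limma-voom, 2 were higher at an adjusted p under 0.05 and 4 had an unadjusted p under 0.05. All 10 had a log2 fold change above 0 (median 0.31), and their summed level was 47.3 to 57.2 FPKM in NL and 63.1 to 101 FPKM in LD. The part of endothelial cells in the level of *Hey2* was not tested.

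*Id1*, an inhibitor of basic helix-loop-helix factors, rose 2.28-fold (3.23 ± 1.34 to 6.95 ± 0.522 FPKM, log2 fold change 1.19, limma adjusted p = 0.00576), a call that 14 of 24 alternatives did not make. *Nrarp*, a Notch target that feeds back on the pathway and was chosen after its values were seen, had 0.938 ± 0.0624 FPKM in NL and 0.490 ± 0.197 FPKM in LD (log2 fold change −0.88, limma adjusted p = 0.0155), without overlap of the groups. *Hes6*, *Hes3*, *Hes7* and *Heyl* ranged from 0.06 to 0.19 on the log2 scale and did not pass the test. Over the 15 tested Hes, Hey and target genes, 2 were called higher and 1 lower, and at an adjusted p under 0.05 5 were higher and 3 lower (median 0.17).

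*Sox2*, the pluripotency and progenitor factor that adult Müller glia and some amacrine cells retain (chromosome 3, 34650405 to 34652461, plus strand), showed the largest increase of the 9 genes. In NL-1, NL-4, NL-5, NL-7 and NL-8 it was at 18.5, 17.4, 17.6, 16.1 and 17.8 FPKM, and in LD-1, LD-4, LD-6, LD-7 and LD-8 at 28.3, 43.0, 40.7, 30.4 and 41.1 FPKM. The NL retinas were nearly alike, whereas the LD retinas fell into LD-1 and LD-7, which lay lower, and the other 3. Its mean rose from 17.5 ± 0.862 to 36.7 ± 6.80 FPKM, 2.06-fold on the fitted scale (log2 fold change 1.04, SE 0.12, limma adjusted p = 8.80e-05, 95% confidence interval 0.79 to 1.30, exact permutation p = 0.00794). Without LD-4 the log2 fold change was 0.98 and without LD-8 it was 1.00, both just short of the minimum fold. The noncoding gene *Sox2ot*, which contains *Sox2* in an intron on the same strand and shares no exonic base with it, had 0.888 FPKM in NL and 1.31 FPKM in LD.

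*Sox9*, which specifies glia and stays on in Müller glia (chromosome 11, 112782224 to 112787760, plus strand), followed the same pattern at a lower level. It had 7.01, 6.48, 6.58, 6.06 and 7.38 FPKM in the NL retinas and 9.11, 15.5, 14.3, 9.23 and 11.3 FPKM in the LD retinas. LD-4 and LD-6 were highest, and all LD retinas exceeded all NL retinas. The increase was 1.72-fold (6.70 ± 0.508 to 11.9 ± 2.91 FPKM, log2 fold change 0.79, SE 0.15, limma adjusted p = 0.00248, 95% confidence interval 0.46 to 1.11). With the close pairs averaged the log2 fold change was 0.76 and the adjusted p 0.0135.

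*Lhx2*, a LIM-homeodomain factor needed for eye field formation and for the glial state of Müller cells (chromosome 2, 38339281 to 38369733, plus strand), did not share the rise. The NL retinas had 11.1, 9.77, 8.86, 9.27 and 10.6 FPKM and the LD retinas 7.20, 12.5, 12.1, 8.21 and 9.78 FPKM. LD-4 and LD-6 lay above and LD-1 and LD-7 below every NL retina, so the LD group enclosed the NL group. The means were 9.91 ± 0.91 and 9.97 ± 2.34 FPKM (log2 fold change −0.02, SE 0.15, limma adjusted p = 0.944, 95% confidence interval −0.35 to 0.31, exact permutation p = 0.937). The sign of this value changed in 6 of 24 alternatives, and without the scaling factor per retina it was 0.11.

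Relative to *Lhx2*, both SOX genes were higher in every LD retina than in any NL retina. The log2 ratio of *Sox2* to *Lhx2* was 0.74 to 0.98 in NL and 1.74 to 2.06 in LD (difference 1.06, exact permutation p = 0.00794, adjusted 0.00907). That of *Sox9* to *Lhx2* was −0.65 to −0.42 in NL and 0.17 to 0.34 in LD (difference 0.81, same p). *Sox9* was thus below *Lhx2* in all 5 NL retinas and above it in all 5 LD retinas. *Sox2* rose more than *Sox9*, by a difference of 0.26 (same p). Among the LD retinas the SD of the log2 ratio was 0.13 for *Sox2* to *Lhx2* and 0.07 for *Sox9* to *Lhx2*.

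The libraries that were high in these genes also differed in other values. LD-4 and LD-6 had the lowest summed rod markers (1409 and 1493 FPKM, where LD-1, LD-7 and LD-8 had 2257 to 2715 FPKM) and the highest summed Müller glia markers (1998 and 2110 FPKM, where those 3 had 1532 to 1588 FPKM). They are also the LD retinas with *Xist*. LD-8, with *Sox2* at 41.1 FPKM, had the highest rod sum and the lowest Müller glia sum of the LD group. The part of these values in the levels of the 9 genes was not tested.

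Müller glia markers did not move as 1 group. Of 12 markers 3 were called higher (*Crym*, *Vim* and *Clu*) and 1 lower (*Glul*, glutamine synthetase, 711 ± 94.8 to 165 ± 8.77 FPKM, log2 fold change −2.09, limma adjusted p = 1.99e-07). The summed level was 1763 to 2063 FPKM in NL and 1532 to 2110 FPKM in LD, all markers were detected, and the median log2 fold change was 0.04. Of 10 genes listed for reactive glia, all were called higher, against 4.13% of all genes tested. With the close pairs averaged 8 were called, where *Edn2* and *Lcn2* had adjusted p-values of 0.0139 and 0.0122. The paper shows *Gfap*, *Edn2* and *Fgf2* from these same data as known light-induced genes, so the count is no independent result. Which cells carried these transcripts was not tested. *Gfap*, the intermediate filament of gliosis, had 11.4 ± 6.65 FPKM in NL and 98.7 ± 28.2 FPKM in LD. *Sox2* is also found in amacrine cells. Of 10 amacrine markers, none was called by limma or limma-voom and 3 had an unadjusted p under 0.05, with a summed level of 156 to 179 FPKM in NL and 146 to 185 FPKM in LD.

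**Figure D4:**
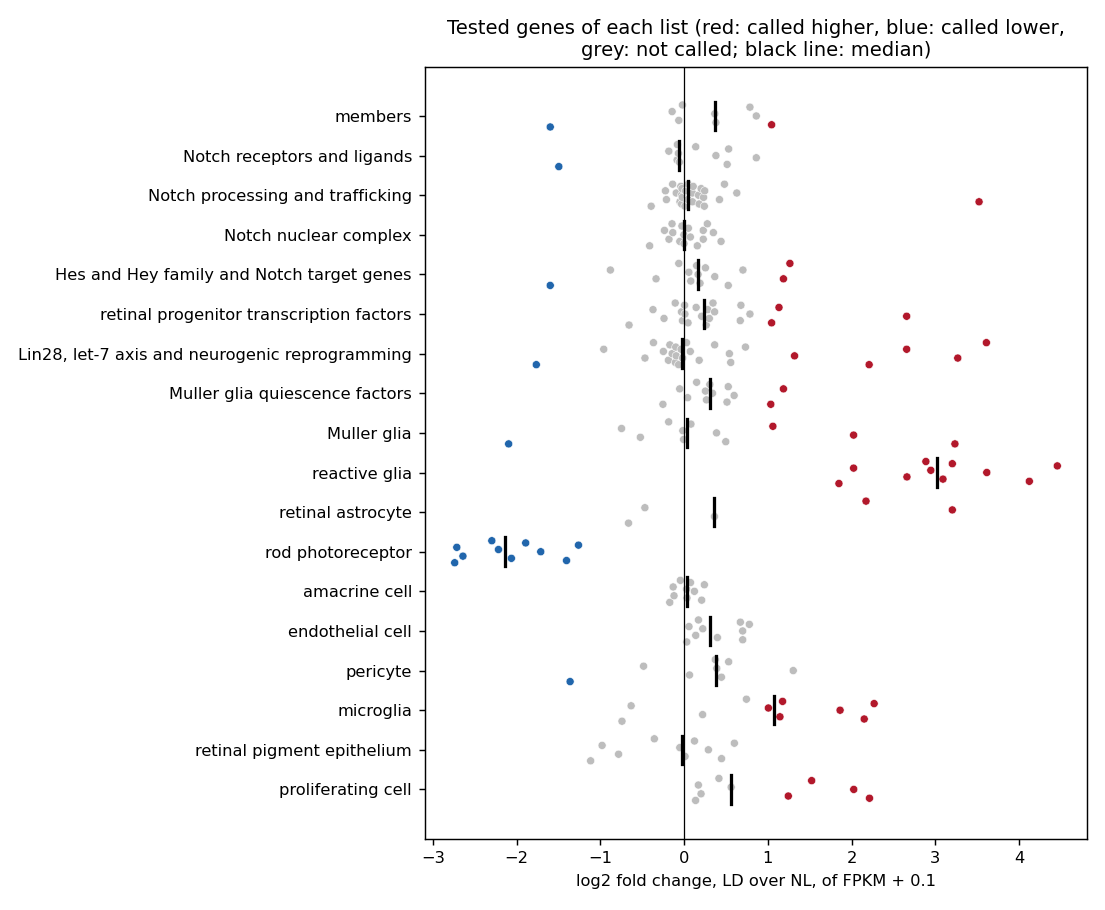
Log2 fold change, LD over NL, of each tested gene of the pathway and cell type lists, with genes called higher in red, called lower in blue, not called in grey and the median of each list as a black line. Reactive glia genes all lie right of 1 and rod genes all left of −1, while the medians of the Notch lists lie between −0.06 and 0.17.

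*Lin28a* (chromosome 4, 134003330 to 134018841, minus strand) had the lowest mean of the 9 genes in both groups. Its values were 1.39, 1.20, 1.10, 1.06 and 1.39 FPKM in the NL retinas and 1.91, 0.654, 0.772, 2.10 and 0.742 FPKM in the LD retinas. LD-1 and LD-7 lay above every NL retina and LD-4, LD-6 and LD-8 below every NL retina, the reverse of the order seen for *Sox2*. The means were almost equal, 1.23 ± 0.157 and 1.24 ± 0.706 FPKM, with a far larger SD in LD. The log2 fold change was −0.14 (SE 0.31, limma adjusted p = 0.783, exact permutation p = 0.675), and its 95% confidence interval of −0.84 to 0.55 leaves room for changes of either sign. Its reads numbered 89 to 143 in the NL libraries and 53 to 191 in the LD libraries. Of its 3996 exonic bases, 234 are shared with *Gm13061* on the opposite strand (0.900 FPKM in NL and 0.687 FPKM in LD).

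*Lin28b*, its paralogue, was lower still (0.286 ± 0.0559 FPKM in NL and 0.291 ± 0.0188 FPKM in LD, log2 fold change 0.03, 95% confidence interval −0.33 to 0.39). Other genes of the same list changed strongly. *Myc*, a growth and reprogramming factor, rose 12.2-fold from 0.318 ± 0.117 to 4.84 ± 0.663 FPKM (log2 fold change 3.61, limma adjusted p = 1.49e-06). *Nes*, the intermediate filament nestin of neural progenitors and reactive glia, rose 9.63-fold from 0.998 ± 0.129 to 10.4 ± 0.936 FPKM (log2 fold change 3.27, limma adjusted p = 1.06e-08). *Hmga2*, a chromatin protein of stem cells and a known let-7 target, rose 6.31-fold from 0.198 ± 0.0458 to 1.83 ± 0.561 FPKM (log2 fold change 2.66, limma adjusted p = 1.31e-05).

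*Prtg*, a cell-surface receptor of early neural tissue, rose 4.62-fold from 2.65 ± 1.34 to 13.0 ± 7.39 FPKM (log2 fold change 2.21, limma adjusted p = 0.0034), a call lost in 5 of 24 alternatives. The proneural gene *Neurog2* was at 1.94 ± 0.21 FPKM in NL and at 2.43, 7.99, 7.21, 3.11 and 6.92 FPKM in LD-1, LD-4, LD-6, LD-7 and LD-8, low in the same libraries as *Sox2*. Its log2 fold change was 1.32 (SE 0.31, limma adjusted p = 0.00952), a call that 17 of 24 alternatives did not make. *Insm1*, a zinc-finger factor of differentiating neurons, fell 3.40-fold from 22.6 ± 3.23 to 6.81 ± 2.31 FPKM (log2 fold change −1.76, limma adjusted p = 1.12e-04). Of 26 genes tested in the Lin28, let-7 and reprogramming list, 5 were called higher and 1 lower, 7 were higher and 5 lower at an adjusted p under 0.05, and the median was −0.03.

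Among 22 retinal progenitor transcription factors, *Sox2*, *Hmga2* and *Hmga1* (31.4 ± 1.95 to 70.1 ± 15.0 FPKM, log2 fold change 1.13, limma adjusted p = 9.02e-05) were called higher and none was called lower. At an adjusted p under 0.05, 7 were higher and 3 lower, with a median of 0.24. *Pax6* (0.21, 95% confidence interval 0.02 to 0.39, limma adjusted p = 0.089) did not pass the adjusted test. *Rax*, the eye field homeobox gene, was lower by less than the minimum fold (35.3 ± 2.46 to 27.2 ± 1.84 FPKM, log2 fold change −0.37, limma adjusted p = 0.00119).

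The order of the 9 levels changed with light damage. In NL, by mean FPKM, it ran *Sox2*, *Lhx2*, *Sox9*, *Hes5*, *Hey1*, *Hes1*, *Notch1*, *Dll1* and *Lin28a*. Neighbours overlapped from *Sox9* to *Notch1* and were separate at the other steps. In LD it ran *Sox2*, *Sox9*, *Lhx2*, *Notch1*, *Hes1*, *Hey1*, *Dll1*, *Hes5* and *Lin28a*, where the only neighbours without overlap were *Sox2* and *Sox9*, and *Dll1* and *Hes5*. *Hes5* thus moved from the fourth to the eighth place, and *Notch1* from the seventh to the fourth.

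Over the 10 retinas, the genes most like a called gene were those with the smallest root mean square difference between log2 levels centred on the NL mean, among 12689 protein-coding genes. For *Hes5* these were *Pla2g7* (0.193), *Tepp* (0.203) and *Plekhg3* (0.219), and for *Sox2* they were *Arhgdia* (0.0669), *Ankrd6* (0.0897) and *Lmna* (0.0964). *Pla2g7* fell from 32.1 ± 1.40 to 10.4 ± 2.24 FPKM, and *Arhgdia* rose from 36.2 ± 0.195 to 78.6 ± 13.6 FPKM.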

How the data were processed

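RNA was sequenced from 5 NL and 5 LD neural retinas, grouped by the sample labels. The values are those the authors deposited, FPKM of 54532 genes in 1 table, with positions on GRCm38, of which 54409 identifiers were found in GENCODE M21 and 53499 at the same position. The submitters' processing notes name Bowtie2 2.0.6, TopHat2 2.0.9 and the build mm8, which the positions do not match. The paper and the labels name different Illumina instruments (HiSeq and NovaSeq). The counting program, annotation and strand setting are not given in the sources used here. FPKM times gene length gave whole reads (tolerance 0.01) for 100% of values, 18965090 to 26832535 reads per retina. For a 1 kb gene 1 read was worth 0.0388 to 0.0493 FPKM.

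From the deposited values, log2(FPKM + 0.1) was fitted in limma 3.58.1 (R 4.3.3) with an intensity trend and no block for the 24508 genes that reached 0.1 FPKM in 5 or more retinas. The threshold (adjusted p under 0.01, over 2-fold) is that of the study. Exact permutation tests over 252 splits were two-sided (scipy 1.17.1, numpy 2.4.6, pandas 2.3.3, Python 3.11.15), and plots used matplotlib 3.10.9. On simulated LD against NL data for 24121 genes, 199 of 200 changed genes were recovered with 3 false calls. The changed genes were drawn from those with more reads, and each changed by clearly more than 2-fold. The libraries were independent and all genes shared the same small dispersion, so high recovery was built in. Recovery of changes near or under 2-fold, of genes with few reads, and in the measured libraries with their close pairs was not tested. The 9 genes and all lists were chosen with earlier results of these data known. From the lists, genes were named where called with a mean of at least 1 FPKM, at most 6 per list by size of change, plus the Notch, Dll, Jag, Hes and Hey families, *Lin28b*, *Pax6*, *Rax* and *Rbpj*. Some genes that this rule names are not reported here. For each called gene of the 9, the 3 most alike protein-coding genes were named. Alternatives changed the pseudocount, filter, scaling, trend, test (limma-voom on recovered reads, permutation), threshold, block, *Xist* covariate, close pairs and retinas included.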

Additional observations from a re-analysis of the deposited data

Results flagged for a closer look

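Each of the 9 genes was checked in both groups for a single retina standing apart by Dixon's test (critical value 0.71 for 5 values), and none of the 18 groups held one, where chance gives about 0.9.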

How the results depend on the processing

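Among the 9 genes 2 were called. The count was 1 with the replicate block on the 8 retinas of shared numbers, 0 with exact permutation of each gene, whose smallest adjusted p of 0.0355 cannot pass 0.01, and 5 at an adjusted p under 0.05 with no minimum fold. Leaving out each retina in turn gave 1 to 2, with 1 without LD-4 and 1 without LD-8, where *Sox2* missed the minimum fold at log2 values of 0.98 and 1.00. Same-numbered retinas share only a number. Their deviations correlated at −0.0893 to 0.0656 and 1 of 4 pairs was closest to its own number. In the block, *Sox2* was called (1.00, adjusted p = 0.00686), *Hes5* was not (−1.56, adjusted p = 0.0171), and *Dll1* and *Notch3* had adjusted p-values of 0.0769 and 0.0935. The same 8 retinas without the block gave 2 calls. Over 24 alternatives the log2 fold change was 0.98 to 1.18 for *Sox2*, −1.74 to −1.24 for *Hes5*, 0.73 to 0.99 for *Notch1*, 0.68 to 0.92 for *Sox9*, 0.30 to 0.51 for *Dll1* and 0.23 to 0.50 for *Hes1*, without a change of sign. The sign changed for *Hey1* in 2, *Lhx2* in 6 and *Lin28a* in 1, none of them called. Over all genes 1595 were called, but 816 with a pseudocount of 1, 815 with the block and 0 with exact permutation. Of all calls 63.5% were higher, and 72.2% without the scaling factor per retina.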

Other observations

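Genes listed as factors of Müller glia quiescence rose more often than they fell, although few passed the minimum fold and the cell cycle inhibitors did not pass the test. Of 13 such genes tested, 2 were called higher, against 4.13% of all genes, and 1 was called with the close pairs averaged. By limma at an adjusted p under 0.05, 7 were higher and 0 lower, against 14.5% higher and 13.4% lower of all genes. The median log2 fold change was 0.31, beside −0.01 for all genes. *Id1*, *Id3* and *Id4* were among those higher. The cell cycle inhibitors of the list were at −0.05 (*Cdkn1b*, limma adjusted p = 0.486), −0.25 (*Cdkn1c*, 0.205) and 0.31 (*Cdkn2c*, 0.207). The called genes were *Id1* and *Tgfb2*, a growth factor known to restrain glial proliferation, which rose from 13.1 ± 0.512 to 27.1 ± 3.66 FPKM (log2 fold change 1.04, limma adjusted p = 1.19e-05, SD, n = 5), a call lost in 6 of 24 alternatives. *Id1* also belongs to the Notch target list.

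Of 9 tested markers of proliferating cells, 4 were called higher in LD and 7 were higher at an adjusted p under 0.05. These counts include genes that passed the filter through the LD retinas alone, as given below. Of all genes tested, 4.13% were called higher and 14.5% were higher at an adjusted p under 0.05. The summed level of these markers was 27.7 to 31.3 FPKM in NL and 38.3 to 42.1 FPKM in LD. Most of it was that of *Pcna*, with means of 21.35 FPKM in NL and 23.98 FPKM in LD. Of the called genes *Ccnd1*, cyclin D1, had the highest level (2.44 ± 0.464 FPKM in NL and 7.34 ± 2.13 FPKM in LD, log2 fold change 1.52, limma adjusted p = 1.85e-04). The other called genes had low means, *Mki67* 0.0272 FPKM in NL and 0.509 FPKM in LD, *Top2a* 0.0212 and 0.401 FPKM, and *Cdk1* 0.0528 and 0.277 FPKM. *Mki67* and *Cdk1* were below the 0.1 FPKM of the filter in every NL retina (highest 0.0636 and 0.0707 FPKM). They were tested only because the LD retinas reached it, so their calls are no independent sign of a rise. The NL mean of *Top2a* was likewise under 0.1 FPKM. Of 10 microglia markers 6 were called higher, and 2 with the close pairs averaged. The log2 fold change was above 0 for 8 markers and below 0 for 2, among them *P2ry12* (−0.74, limma adjusted p = 0.122). The summed level of the microglia markers was 33.7 to 52.4 FPKM in NL and 65.2 to 155 FPKM in LD. Of 5 astrocyte markers 2 were called higher, *Gfap* and *Aldh1l1*. Of the other 3, named after their values were seen, *Igf2* had a log2 fold change of −0.66 (limma adjusted p = 0.0167) and *S100b* one of −0.47 (limma adjusted p = 0.0674), and *Pax2* was at 0.269 ± 0.127 FPKM in NL and 0.364 ± 0.104 FPKM in LD. Of 10 pigment epithelium markers none was called by limma or limma-voom, 2 had an unadjusted p under 0.05, and the summed level was 52.0 to 159 FPKM in NL and 62.3 to 121 FPKM in LD. Which cells carried these transcripts was not tested.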
